A study of Mus musculus with 33 samples.

Results

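Wdr5 is a WD40-repeat protein that sits at the core of every MLL/SET1-type complex that methylates histone H3 on lysine 4. It is also found in assemblies that hold no methyltransferase. Menin joins only a subset of these complexes, those built on MLL1 or MLL2, where it holds the enzyme at chromatin. The regions described here are places in the genome where Wdr5 was found reproducibly in growing mouse myoblasts and where the authors' pooled Menin list had no peak. A site was chosen by 3 conditions: it was an autosomal peak of the pooled Wdr5 list, it overlapped a peak of at least 2 of the 3 Wdr5 replicate lists by 1 bp or more, and it overlapped no peak of the pooled Menin list. This held for 525 sites. They were 10.8% of the 4881 replicated Wdr5 sites and 1.28% of the 41094 autosomal Wdr5 peaks without pooled Menin, out of 58123 autosomal Wdr5 peaks and 396699 autosomal peaks in the 9 pooled or single lists of the series. They are called sites without pooled Menin below and are set against the 4356 replicated sites with pooled Menin.

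All samples were C2C12 cells, a mouse muscle precursor line. Myotube lists (ING1, Sin3A, LSD1) came from cells held for 4 days (96 h) in 2% horse serum, and myoblast lists (Wdr5, Menin, MLL1, MLL3, LSD1, ING1) from cells growing in 10% fetal bovine serum. ING1 was captured with an anti-Flag antibody in a stable, puromycin-selected line carrying a retrovirally delivered Flag-ING1, so those lists report an added, tagged protein in both states. The other proteins were captured from C2C12 cells for which the labels name no such transgene, with antibodies to the proteins themselves. Replicate lists numbered 3 for Wdr5 and for ING1 in myotubes, and 2 each for Menin, MLL1, Sin3A and ING1 in myoblasts. LSD1 in either state and MLL3 had 1 list. The sample labels place Sin3A in myotubes while the design text speaks of myoblasts, and the MLL1 samples carry Menin as their source name but MLL1 as their antibody. The sample titles and antibodies were followed. Labels do not say whether replicates were separate cultures, so their spread may be technical.

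The lists hold peak boundaries and no heights, and the depth behind them is unknown. Autosomal peaks numbered 4981 to 9319 in the Wdr5 replicate lists and 15648 to 22868 in those of Menin. The other replicate lists ran from 122 peaks (ING1 in myotubes, replicate 3) to 9270 (Sin3A, replicate 1). The pooled Menin list, which the rule used, was longer than either Menin replicate list, with 68934 autosomal peaks covering 68.1 Mb. Coordinates are of mouse build mm9, named per the submitters' processing notes, with starts counted from 1. No genome or annotation of that build was used here, so sites are given by position, without genes or sequence.

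The Wdr5 signal behind these sites was spread over all 3 libraries. Of the 525 sites without pooled Menin, 465 met a peak of Wdr5 replicate 1, 386 of replicate 2 and 387 of replicate 3. All 3 lists were met by 188 of them (35.8%, exact 95% interval 31.7 to 40.1) and by 2383 sites with pooled Menin (54.7%, 53.2 to 56.2), against a background of 52.7% over all replicated sites. The other 337 sites without pooled Menin met 2 lists, 138 of them replicates 1 and 2, 139 replicates 1 and 3, and 60 replicates 2 and 3. These counts belong to the values that chose the sites and are given as a description. Peaks at sites without pooled Menin made up 5.15%, 7.87% and 7.74% of the Wdr5 replicate lists 1, 2 and 3, and peaks at sites with pooled Menin 46.0%, 74.7% and 74.1%. Replicate 1, the longest list, therefore had the lower share in both classes.

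Sites without pooled Menin were narrower. Their width had a median of 1323 bp, with the central 50% between 1006 and 1743 bp, against 1549.5 bp (1196.75 to 2059.5 bp) at sites with pooled Menin. Their widths ran from 16 to 3513 bp, and 9 were under 500 bp. Widths over 2 kb were found at 76 sites without pooled Menin (14.5%) and at 1167 with it (26.8%). Within the single libraries the peaks at sites without pooled Menin had median widths of 660, 517.5 and 538 bp in replicates 1, 2 and 3, against 795.5, 616 and 626 bp at sites with pooled Menin. They were narrower in each of the 3 libraries. A wide site has more bases that can meet another peak, and this holds for the Menin peaks that the rule excludes too. How far the rule itself made the sites narrower was not tested. Comparisons with other lists below are for the same reason also given with widths equalised. The 40569 Wdr5 peaks without pooled Menin that were not replicated had a median width of 557 bp.

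"Without Menin" held for the pooled list and not for every replicate. A peak of Menin replicate 1 lay at 62 of the 525 sites and a peak of Menin replicate 2 at 58. Either replicate list was met by 106 sites (20.2%) and both by 14, and 419 met neither. At sites with pooled Menin the replicate lists 1 and 2 were met by 84.2% and 81.0%. Of all autosomal Menin peaks, 7.71% in replicate 1 and 4.02% in replicate 2 met no peak of the pooled list. The number of sites rests on these choices. It was 188 when all 3 Wdr5 lists were required, and 248, 327 and 326 without Wdr5 replicate 1, 2 and 3. With Menin taken from 1 replicate list it was 1296 without Menin replicate 1 and 1152 without Menin replicate 2. With those larger sets the Sin3A contrast described below shrank to −28.3 and −28.6 percentage points without Menin replicate 1 and 2, and that of ING1 in myotubes to −30.4 without Menin replicate 2.

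Most of the sites were not on the shoulder of a Menin peak. The gap to the nearest pooled Menin peak had a median of 6030 bp, with 143 sites under 1 kb away, 169 between 1 and 10 kb and 213 at 10 kb or more. The nearest were 16 bp away (chr11:69475479-69477005), 33 bp away (chr1:180971008-180972951) and 44 bp away (chr15:98904454-98905950). Just outside the rule were sites that shared 24 bp (chr6:42346116-42346908), 34 bp (chr7:87982503-87983682) and 37 bp (chr8:20020323-20020384) with a Menin peak. The last of these was itself only 62 bp wide.

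The 5 sites farthest from Menin had gaps of 131694 to 181855 bp. The farthest, chr6:89544948-89545900, met Wdr5 replicates 1 and 3 and was 86.4% covered by Sin3A of myotubes and by none of the other 6 lists. The second, chr1:34658961-34659534, was a narrow site of 574 bp that the peaks of Wdr5 replicates 1, 2 and 3 covered over 99.5%, 76.8% and 68.5%, and it met no other list. The third, chr12:31595618-31597577, had ING1 on 28.2% in myotubes and 37.7% in myoblasts, without Sin3A. The fourth, chr18:9707912-9708872, had MLL3 on 6.66%, and the fifth, chr10:19626999-19628214, had MLL3 on 53.9% and Sin3A on 44.8%. Of these 5 remote sites, none met MLL1 or LSD1. Over all 213 sites at 10 kb or more from Menin, MLL1 lay at 6.10% and LSD1 at 9.86% in each state. At such shares, 5 sites are too few to show a lack of either.

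The other 7 lists were then laid over the sites to see which partners accompany Wdr5 where pooled Menin is missing. These overlaps were not used to choose the sites. MLL1, the methyltransferase that Menin serves, had the lowest share relative to sites with pooled Menin: its peaks lay at 41 of 525 sites without pooled Menin (7.81%, exact 95% interval 5.66 to 10.4), against 1959 of 4356 with it (45.0%, 43.5 to 46.5; background over all replicated sites 41.0%). That was 0.174 times the share at sites with pooled Menin. ING1 in myoblasts, a reader of trimethylated H3K4 within Sin3 deacetylase complexes, lay at 145 sites without pooled Menin (27.6%, 23.8 to 31.7) and 3140 with it (72.1%, 70.7 to 73.4; background 67.3%). LSD1 in myoblasts, which removes methyl groups from H3K4, lay at 75 (14.3%, 11.4 to 17.6) and 2024 (46.5%, 45.0 to 48.0; background 43.0%). These 3 myoblast partners were each less frequent where pooled Menin was missing.

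The myotube lists differed in the same direction, although Wdr5 and Menin were mapped in myoblasts. Sin3A, the protein on which Sin3 deacetylase complexes are built, lay at 230 sites without pooled Menin (43.8%, 39.5 to 48.2) and 3789 with it (87.0%, 85.9 to 88.0; background 82.3%). ING1 of myotubes lay at 191 (36.4%, 32.3 to 40.7) and 3572 (82.0%, 80.8 to 83.1; background 77.1%), and LSD1 of myotubes at 80 (15.2%, 12.3 to 18.6) and 1989 (45.7%, 44.2 to 47.2; background 42.4%). Sin3A was thus the most frequent of the 7 partners in both classes of site.

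MLL3, a methyltransferase whose complexes contain Wdr5 but not Menin, had nearly the same share in both classes. It lay at 159 sites without pooled Menin (30.3%, 26.4 to 34.4) and 1302 with it (29.9%, 28.5 to 31.3; background 29.9%). The difference was 0.40 percentage points, with a 95% interval of −3.62 to 4.67. It was lower on 9 of 19 autosomes. MLL3 was the most frequent partner among the 4 myoblast lists at sites without pooled Menin and the least frequent at sites with it. The MLL3 list is by far the longest, at 208538 autosomal peaks covering 163.0 Mb. Those of LSD1, ING1 and MLL1 in myoblasts hold 4419, 8114 and 8795, so this ranking is not at equal list length.

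**Figure D1:**
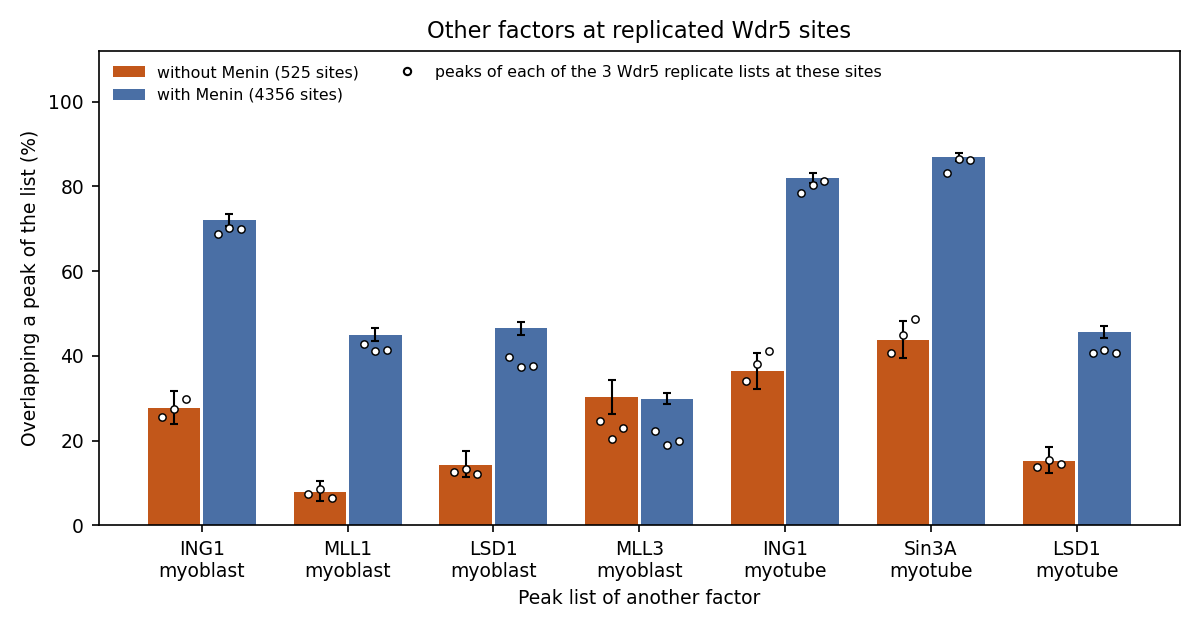
Percentage of replicated Wdr5 sites that overlapped a peak of each of 7 other lists, for 525 sites without pooled Menin (left bar of each pair) and 4356 with it (right bar). Bars are sites with exact 95% intervals, and open points are the peaks of the 3 Wdr5 replicate lists at those sites; 6 lists were lower without pooled Menin in all 3 libraries, and MLL3 was 30.3% against 29.9% of sites.

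Each contrast was also computed in each of the 3 Wdr5 libraries, from the peaks of its replicate list at the 2 classes of site. The libraries share many sites, since a site had to meet at least 2 of their lists. Each library was set against the same partner lists and the same Menin classes. The spread between libraries therefore leaves out any spread between Menin lists or between partner lists. MLL1 met 7.50%, 8.67% and 6.43% of the peaks at sites without pooled Menin in replicates 1, 2 and 3, against 42.8%, 41.0% and 41.5% at sites with it. ING1 of myoblasts met 25.6%, 27.6% and 29.8%, against 68.9%, 70.1% and 69.8%. Sin3A met 40.6%, 44.9% and 48.6%, against 83.1%, 86.3% and 86.3%. In all 3 cases the ranges of the libraries were far apart. The mean difference within a library was −34.2 ± 1.64 percentage points for MLL1, −41.9 ± 1.69 for ING1 of myoblasts, −25.6 ± 1.56 for LSD1 of myoblasts, −42.3 ± 2.15 for ING1 of myotubes, −40.5 ± 2.53 for Sin3A and −26.4 ± 0.375 for LSD1 of myotubes (SD, n = 3 libraries). For MLL3 the library values were 24.6%, 20.4% and 22.9% against 22.3%, 18.9% and 19.96%, a mean difference of 2.22 ± 0.732 (SD, n = 3). Every one of the 7 contrasts had an exact two-sided sign-flip permutation p of 0.25 (adjusted over the 7 lists, 0.25), which is the smallest that 3 libraries allow, so none can pass 0.05 in this design.

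The contrast in the 6 lists remained at equal widths. With the sites with pooled Menin weighted to the widths of those without, the difference was −34.7 percentage points for MLL1, −40.7 for ING1 of myoblasts, −40.8 for Sin3A and −27.6 for LSD1 of myoblasts, while MLL3 came to 3.41. The 6 lists were lower at sites without pooled Menin on 19 of 19 autosomes. MLL3 turned to lower values in 5 alternatives, down to −1.87 without Wdr5 replicate 1.

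The replicate lists of the partners pointed the same way but differed in size with the length of the list. ING1 of myoblasts lay at 1.14% and 18.7% of sites without pooled Menin in its replicates 1 and 2, against 6.06% and 58.1% of sites with it. MLL1 lay at 2.67% and 0.381%, against 28.4% and 5.33%. Sin3A lay at 37.1% and 2.48%, against 81.8% and 6.66%. ING1 of myotubes lay at 9.71%, 8.57% and 1.71%, against 26.3%, 30.6% and 1.84%. All 9 lists were lower at sites without pooled Menin, and the shortest, ING1 of myotubes replicate 3 with 122 peaks, barely differed. When a site was counted for a peak in any replicate list of the partner, the difference for MLL1 was −26.0 percentage points, and −4.95 without MLL1 replicate 1. For ING1 of myoblasts it was −39.6, and −4.92 without ING1 myoblast replicate 2. For Sin3A it was −44.7, and −4.18 without Sin3A replicate 1. For ING1 of myotubes it was −26.1, and −16.0 without ING1 myotube replicate 2. Only the shorter list, of 427, 460 or 426 peaks, was then left to be met for ING1 of myoblasts, MLL1 and Sin3A.

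The sites without pooled Menin also differed from the large body of Wdr5 peaks that were neither replicated nor at Menin. Of those 40569 peaks, 0.976% met MLL1, 0.806% ING1 of myoblasts, 0.242% LSD1 of myoblasts and 2.02% Sin3A, and 20.6% met MLL3. The 525 sites therefore lay between these peaks and the sites with pooled Menin for 6 partners, a description that includes the difference in width.

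The 2 classes also differed in the number of partners per site. None of the 7 lists was met by 160 of 525 sites without pooled Menin (30.5%, exact 95% interval 26.6 to 34.6) and by 122 of 4356 with it (2.80%, 2.33 to 3.33), against a background of 5.78%. Another 70 sites without pooled Menin (13.3%) met MLL3, the longest list, and nothing else. Sites with no list or MLL3 alone thus numbered 230 without pooled Menin (43.8%), against 181 with it (4.16%). At least 3 lists were met by 170 sites without pooled Menin (32.4%) and by 3626 with it (83.2%). The median was 1 list per site without pooled Menin and 4 per site with it. No site without pooled Menin met all 7 lists, for which 3 counts would be a share of 0.571% and the exact 95% interval reaches 0.7002%, whereas 196 sites with pooled Menin (4.50%) did.

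**Figure D2:**
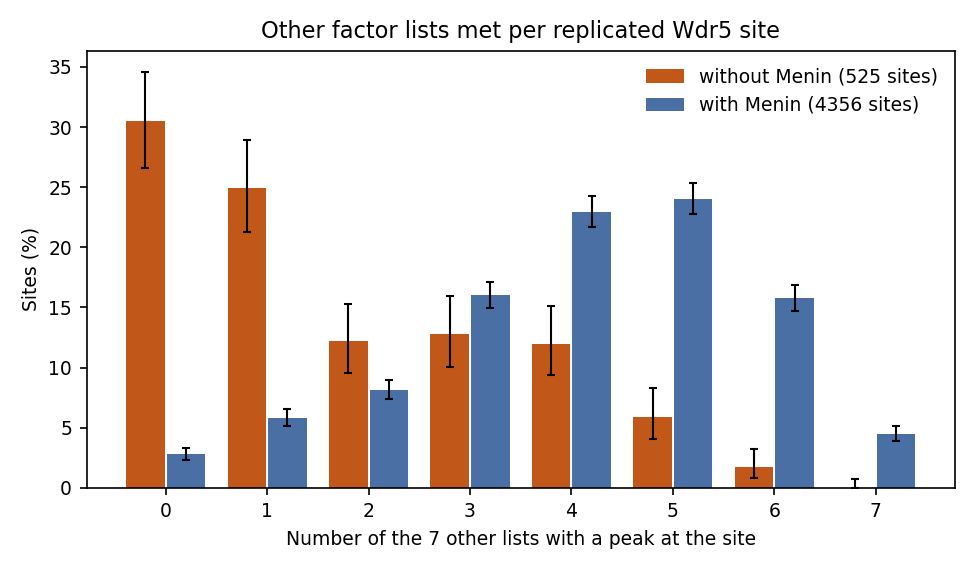
Percentage of replicated Wdr5 sites by the number of the 7 other lists with a peak there, without pooled Menin (left bar) and with it (right bar); error bars are exact 95% intervals. Sites without pooled Menin pile up at 0 (30.5%) and 1 (24.95%), and sites with it at 4 (23.0%) and 5 (24.0%).

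The widest sites without any partner were wide in the pooled list, while the peaks of the single Wdr5 libraries covered between 16.6% and 60.4% of them where they were met. The first was chr4:117687650-117690696, of 3047 bp, covered by Wdr5 replicates 1 and 3 over 53.4% and 60.4%. The second was chr5:112227352-112230269, of 2918 bp, covered by replicates 1 and 2 over 20.4% and 20.8%. The next 3 met all 3 Wdr5 lists. They were chr4:140828684-140831571 with coverage of 36.4%, 17.8% and 23.1% in replicates 1, 2 and 3, chr1:36619187-36622033 with 47.1%, 25.6% and 16.6%, and chr1:133586169-133588815 with 26.0%, 29.8% and 30.1%. The first 2 of those 3 lay 1846 and 1054 bp from a pooled Menin peak, and each met a peak of 1 Menin replicate list. The remaining one lay 20188 bp from Menin and met neither Menin replicate list.

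These last 3 sites were also among the 8 widest that met all 3 Wdr5 lists, so 3 of the 8 had no partner. Of the other 5, 4 carried ING1 and Sin3A. The widest of the 8, chr15:56551766-56554861, had MLL3 on 43.7% and MLL1 on 15.4% and lay 635 bp from Menin. It met a peak of 1 Menin replicate list. The next, chr8:4675943-4678992, had MLL3 on 65.8%, ING1 of myoblasts on 43.0% and Sin3A on 37.8%. On chr19:7014775-7017556 ING1 covered 69.7% in myotubes and 60.3% in myoblasts, Sin3A covered 53.8%, and LSD1 of myotubes 10.4%. On chr8:73196285-73198905, which met peaks of both Menin replicate lists, Sin3A covered 34.5% and ING1 of myoblasts 26.6%. The last, chr18:60933444-60936052, was the most strongly shared between libraries, with Wdr5 peaks over 88.5%, 74.4% and 90.6% of it in replicates 1, 2 and 3. It carried ING1, Sin3A and LSD1 in every state mapped, and neither MLL1 nor MLL3.

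Most sites with ING1 and without pooled Menin also had Sin3A, but many Sin3A sites had no ING1. Sin3A and ING1 of myotubes were both met by 164 of the 525 sites (31.2%), against 3366 of the 4356 with pooled Menin (77.3%). Among the 525, Sin3A was the only partner at 30 and MLL1 the only one at 12. Of the 230 Sin3A sites without pooled Menin, 125 (54.3%) had ING1 of myoblasts and 164 (71.3%) had ING1 of myotubes. At the 3789 Sin3A sites with pooled Menin it was 77.6% and 88.8%. The pooled Sin3A list is the longer, with 13845 autosomal peaks against 8114 for ING1 of myoblasts and 9570 of myotubes. At the 145 sites with ING1 of myoblasts and without pooled Menin, Sin3A of myotubes lay at 86.2% (exact 95% interval 79.5 to 91.4), ING1 of myotubes at 80.7% (73.3 to 86.8) and LSD1 of myoblasts at 35.9% (28.1 to 44.2). At the 3140 sites with pooled Menin and ING1 of myoblasts these shares were 93.7%, 90.1% and 54.2%. MLL1 lay at 10.3% (5.91 to 16.5) of those 145 sites and at 49.8% of the 3140. So MLL1 was the partner that stayed rare at sites without pooled Menin even where ING1 was present. At the 380 sites with neither pooled Menin nor ING1 of myoblasts, Sin3A lay at 27.6%, LSD1 of myoblasts at 6.05%, MLL1 at 6.84% and MLL3 at 30.8%. Differences between these subsets were not tested over libraries.

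Of 75 sites without pooled Menin that had LSD1 in myoblasts, 70 (93.3%) had Sin3A in myotubes, against 1928 of 2024 (95.3%) at sites with pooled Menin. For LSD1 of myotubes, mapped in the same state as Sin3A, it was 65 of 80 sites without pooled Menin, against 1922 of 1989 with it. The other 15 of the 80 sites had no Sin3A. This lower share without pooled Menin was not tested over libraries. For MLL3 the shares were closer. ING1 of myoblasts lay at 26.4% of the sites without pooled Menin that had MLL3 and at 28.1% of those that lacked it, and Sin3A at 41.5% and 44.8%.

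The most occupied sites without pooled Menin met 6 of the 7 lists, which held for 9 sites. Of the 5 named by that count, with ties settled by Wdr5 lists and width, 3 lacked MLL1, 1 lacked MLL3 and 1 lacked LSD1 of myotubes. On chr1:155333001-155335150 only MLL1 was missing, and LSD1 of myotubes covered 82.0%. On chr2:25210851-25212631 only LSD1 of myotubes was missing, with MLL3 on 96.5%, ING1 of myotubes on 80.9% and MLL1 on 18.2%. On chr3:89049692-89051068, 149 bp from Menin, only MLL3 was missing and MLL1 covered 45.7%. On chr11:68714502-68715761, 152 bp from Menin, MLL1 was missing and the Wdr5 peaks of replicates 1, 2 and 3 covered 86.2%, 85.6% and 71.0%. This chr11 site met a peak of 1 Menin replicate list. On chr7:17612101-17613273, 105627 bp from Menin, MLL1 was missing again and Sin3A covered 86.2%. High occupancy without pooled Menin was thus found next to a Menin peak and also far from any.

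Distances between centres were taken only at sites that met a peak of the partner. This overlap itself limits how far apart the centres can lie, so a short distance alone does not show centring on Wdr5. At sites without pooled Menin the median distance between the centres of the Wdr5 site and the partner peak was 157.25 bp for Sin3A, 198 bp for ING1 of myoblasts, 196 bp for MLL1 and 276 bp for LSD1 of myoblasts. At sites with pooled Menin it was 186.5, 206, 238 and 294 bp. Sites with pooled Menin were also wider, with a median of 1549.5 bp against 1323 bp. The part of width in these distances was not tested. MLL3 peaks were centred farther away, at 544 bp without pooled Menin and 685 bp with it. Sin3A covered a median 60.0% of the site it met without pooled Menin and 66.3% with it, and MLL1 39.6% and 55.1%.

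Coverage around the sites also differed between MLL3 and the other lists. ING1 peaks of myoblasts covered 21.0% of the centres of sites without pooled Menin and a mean of 0.952% of positions 10 kb to either side, and 57.2% and 0.7002% at sites with pooled Menin. Sin3A covered 37.7% and 1.33%, against 75.4% and 1.29%. MLL3 covered 13.1% of the centres and 12.9% of the positions at 10 kb without pooled Menin, and 9.41% and 15.7% with it. MLL3 coverage at the centres was therefore close to that at 10 kb at sites without pooled Menin, and below it at sites with pooled Menin. It was not flat in between. At 500 bp before and after the centre it was 16.4% and 16.8% without pooled Menin, and 13.8% and 12.0% with it. The pooled Menin list covered 6.95% of positions at 1 kb, 8.38% at 2 kb and 5.90% at 10 kb from the centres of sites without pooled Menin, against 63.1%, 34.8% and 11.7% around sites with it.

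**Figure D3:**
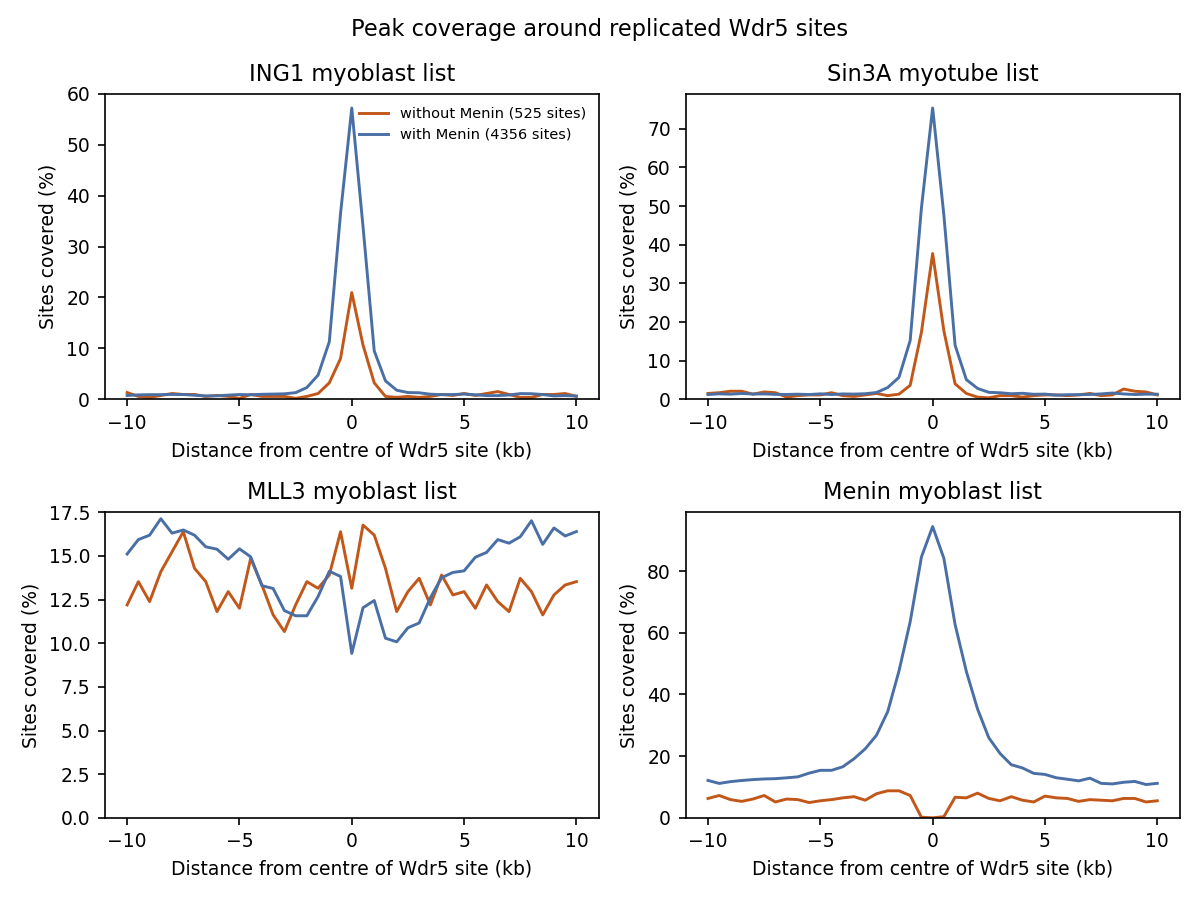
Percentage of replicated Wdr5 sites covered by a peak of ING1 (myoblasts), Sin3A (myotubes), MLL3 (myoblasts) and Menin (myoblasts), in steps of 500 bp up to 10 kb from the site's centre, without pooled Menin and with it; the vertical scales differ. ING1 and Sin3A peak at the centre in both classes (21.0% against 57.2%, and 37.7% against 75.4%), MLL3 does not, and Menin is 0 at the centre of sites without it by the rule that chose them.

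The share of sites with a partner was higher near a Menin peak for 6 of the 7 lists. Sin3A lay at 58.7% of the 143 sites under 1 kb from pooled Menin (exact 95% interval 50.2 to 66.9), at 39.1% of the 169 sites between 1 and 10 kb (31.7 to 46.8) and at 37.6% of the 213 sites at 10 kb or more (31.0 to 44.4). ING1 of myoblasts lay at 37.1%, 27.8% and 21.1% in the same order, and LSD1 of myoblasts at 23.8%, 11.8% and 9.86%. MLL1 lay at 10.5%, 7.69% and 6.10%, and MLL3 at 31.5%, 32.0% and 28.2%. The share of sites with none of the 7 lists was 18.2%, 32.0% and 37.6%. Median widths of the 3 classes were 1280, 1395 and 1282 bp, and all 3 Wdr5 lists were met by 35.0%, 36.7% and 35.7%. The trend over distance was not tested, nor was any part of width or Wdr5 support in it. When only the 382 sites at least 1 kb from Menin were kept, the difference from sites with pooled Menin was −48.0 percentage points for ING1 of myoblasts, −38.2 for MLL1 and −48.8 for Sin3A.

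**Figure D4:**
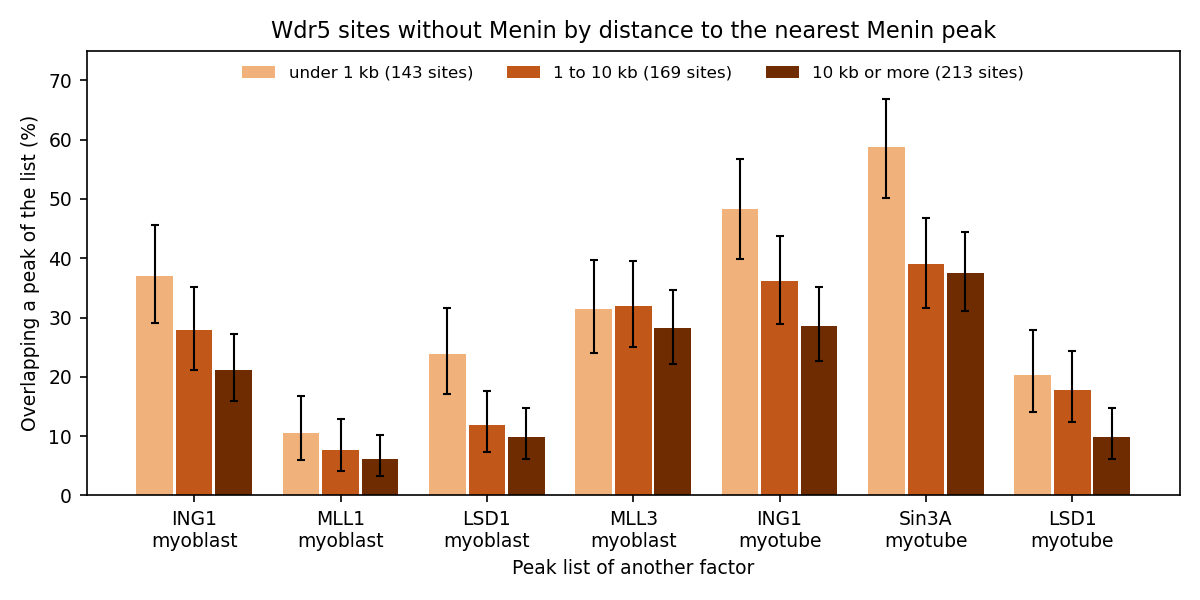
Percentage of sites without pooled Menin that overlapped a peak of each of 7 lists, by the gap to the nearest pooled Menin peak (under 1 kb, 143 sites; 1 to 10 kb, 169; 10 kb or more, 213), with exact 95% intervals. Sin3A goes through 58.7%, 39.1% and 37.6% with growing distance, while MLL3 stays at 31.5%, 32.0% and 28.2%.

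The 106 sites that met a Menin replicate list carried more partners than the 419 that met neither. Sin3A lay at 64.2% and 38.7%, ING1 of myoblasts at 46.2% and 22.9%, LSD1 of myoblasts at 25.5% and 11.5% and MLL1 at 12.3% and 6.68%, with MLL3 at 30.2% and 30.3%. Their median widths were 1486 and 1295 bp. Sites with all 3 Wdr5 lists likewise had more partners than those with 2, with Sin3A at 58.0% of 188 against 35.9% of 337 and ING1 of myoblasts at 37.8% against 22.0%, and median widths of 1383 against 1276 bp. The 188 sites still differed from the sites with pooled Menin that met all 3 lists, by −33.1 percentage points for Sin3A and −36.9 for MLL1. Support for Menin or for Wdr5 in more lists thus went with more partners, and its part in the contrast with pooled Menin was not tested beyond these values.

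Wdr5 and Menin were not mapped in myotubes, but ING1 and LSD1 were mapped in both states. In the pooled lists ING1 lay at 191 sites without pooled Menin in myotubes and at 145 in myoblasts. Of those, 117 were shared, 74 were found in myotubes alone and 28 in myoblasts alone. In the replicate lists ING1 met 6.67% ± 4.33 of the sites in myotubes (SD, n = 3) and 9.90% ± 12.4 in myoblasts (SD, n = 2), a difference of −3.24 percentage points (exact two-sided permutation p = 0.8, the smallest possible being 0.2). The groups overlapped: 51, 45 and 9 sites were met by myotube replicates 1, 2 and 3, against 6 and 98 by myoblast replicates 1 and 2. The lists differed in length and held 2151, 2485 and 122 peaks in myotubes and 427 and 5496 in myoblasts. The longest list met the most sites, but the counts did not follow length throughout. Myotube replicate 3 met more sites than the longer myoblast replicate 1, and myotube replicate 1 more than the longer myotube replicate 2. The difference was 5.52 without ING1 myoblast replicate 2, −12.0 without ING1 myoblast replicate 1 and −0.76 without ING1 myotube replicate 3.

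Of the 145 sites with ING1 in myoblasts and without pooled Menin, 80.7% (exact 95% interval 73.3 to 86.8) also had it in myotubes, against 90.1% (89.0 to 91.1) of the 3140 such sites with pooled Menin. LSD1, with 1 list per state, lay at 80 sites without pooled Menin in myotubes and 75 in myoblasts. Its lists differed in length, with 16361 autosomal peaks in myotubes and 4419 in myoblasts. Of these peaks, 0.513% and 1.74% lay at sites without pooled Menin, so the counts are not at equal list length. LSD1 was listed in both states at 30 sites, in myotubes alone at 50 and in myoblasts alone at 45. Of the myoblast LSD1 sites 40.0% (28.9 to 52.0) had LSD1 in myotubes, against 59.2% (57.1 to 61.4) at sites with pooled Menin. These differences between classes were not tested over libraries.

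The sites were scattered over the genome. The gap from one site without pooled Menin to the next had a median of 703975 bp, and 10 sites had another within 10 kb. A replicated Wdr5 site with pooled Menin lay within 10 kb of 46 of them (8.76%), and the median gap to one was 81139 bp. Their share of the replicated Wdr5 sites ran from 6.74% on chromosomes 12 (12 of 178) and 13 (13 of 193) to 17.8% on chromosome 7 (38 of 213, exact 95% interval 12.9 to 23.7). Chromosome 17 followed with 14.8% (35 of 237, 10.5 to 19.9), and chromosome 11 held the most sites, 50 of 483 (10.4%). Chromosome 7 was the only autosome whose interval lay wholly above the overall 10.8%, and none lay wholly below it. This share was not tested between chromosomes.

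**Figure D5:**
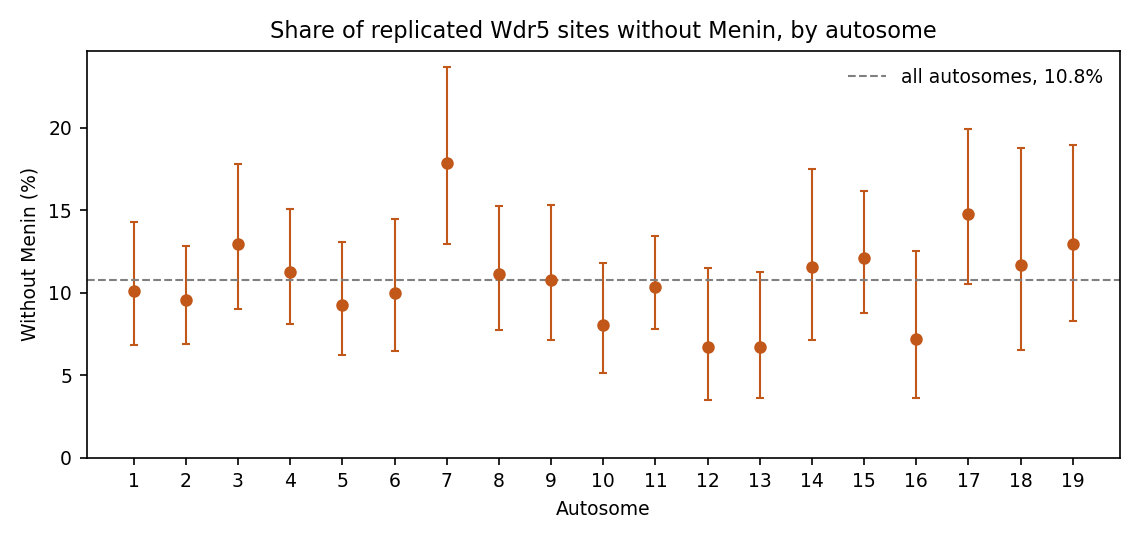
Percentage of replicated Wdr5 sites without pooled Menin on each of 19 autosomes, with exact 95% intervals that cover counting error only; the dashed line is the value over all autosomes, 10.8%. Chromosome 7 is highest at 17.8%, and chromosomes 12 and 13 are lowest at 6.74%.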

How the data were processed

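ChIP-seq peak lists of C2C12 cells were used as deposited. Each holds 3 columns (chromosome, left and right boundary in bp, per the file headers); no height, fold or significance accompanies a peak. Per the submitters' processing notes, build mm9 was used with bedtools 2.17.0, SAMtools 0.1.19 and Bowtie 0.12.9. How the authors called peaks and merged replicates is not given in the sources used here. Of 33 samples, 17 had lists; inputs and RNA-seq were not analysed here.

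Left boundaries were read as counted from 0. Overlaps of at least 1 bp were computed on 19 autosomes with Python 3.11.15, numpy 2.4.6 and scipy 1.17.1, and checked on made-up intervals. Shares carry exact (Clopper-Pearson) 95% intervals, and the differences between shares Newcombe intervals; both cover counting error only, and neighbouring peaks are not independent. Contrasts between classes of site were tested within the 3 Wdr5 libraries by exact sign flips, and ING1 between states over 5 lists. Both classes come from the same library, so the libraries were kept as blocks. Width weighting used 10 classes.

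Sites were named by a fixed rule: the 8 widest in 3 Wdr5 lists, the 5 with most partners, the 5 widest with none, the 3 nearest to Menin with the 3 smallest overlaps, and the 5 farthest. The sites and lists were chosen with earlier results of these data known. Gene names and sequence need a reference of build mm9, not used here.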

Additional observations from a re-analysis of the deposited data

Results flagged for a closer look

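Counts from 2 kinds of data outside the main comparison exceeded 3, the number that a count of 0 allows. Neither would be 0 by the background: 7.71% and 4.02% of all Menin replicate peaks met no pooled Menin peak, and 10.8% of replicated autosomal Wdr5 sites had no pooled Menin, so the counts are given as values only. Menin replicate peaks lay at 106 of the 525 sites that the pooled Menin list leaves without Menin (20.2%). Chromosome X, which the rule leaves out, held 10 further sites without pooled Menin among 39 replicated Wdr5 sites (25.6%, exact 95% interval 13.0 to 42.1).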

How the results depend on the processing

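The 6 lists other than MLL3 kept their direction under all alternatives run for each (15 to 19 per list). These include the setting without a replicate block, which changes only the p-value and so could not change the direction. The number of sites was 188 with all 3 Wdr5 lists required and 248 to 1296 when a Wdr5 or Menin replicate was left out. It stayed within 1.5 times of 525 with the union of the Menin replicate lists (728), with no replicate Menin peak (419, for which contrasts were added after the data were seen), at least 1 kb from Menin (382) and with overlaps of 50% of the shorter peak (586). The small MLL3 difference turned to −1.06 percentage points with all 3 Wdr5 lists, −0.047 at least 1 kb from Menin and −1.48 in the wider 50% of sites, and ran from −1.87 to 3.90 with 1 replicate left out. Without the library as a replicate block the 6 contrasts had an exact permutation p of 0.1 (3 against 3, the smallest possible) and MLL3 0.2, with the same differences, for example −37.2 for MLL1.

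For ING1 between states the difference ran from −12.0 to 5.52 with 1 replicate left out. It turned to 0.35 with lists of equal length, each cut to its 122 widest peaks. Those lists met 0.381% and 0.190% of the sites in myoblast replicates 1 and 2. Myotube replicates 1, 2 and 3 met 0%, 0.190% and 1.71%, and the last list already held only 122 peaks. In an alternative added after the data were seen, the difference turned to 2.24 as the percentage of each ING1 list's peaks. With the replicate number as a block it was −0.76, but same-numbered lists did not deviate together (correlations over sites of −0.20 and 0.093), so the numbers were not taken as pairs. The cause of these turns was not tested. Depth is unknown, and list length limits every share.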
